A study of Mus musculus with 6 samples.

Results

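The transcripts described here are those of 10 genes at the centre of the cell's defence against oxidants, which are the transcription factor gene Nfe2l2 (its protein is NRF2), its inhibitor Keap1, and Hmox1, Nqo1, Gclc, Gclm, Gsr, Txnrd1, Srxn1 and Gpx1. Every probe that the array files name for these genes was taken, control spots aside, which gave 17 of 41174 probes and 10 of 28786 gene names on the array. The samples were 6 primary cultures of C4HD, a hormone-dependent ductal mammary tumour of female BALB/c mice that arose under the progestin medroxyprogesterone acetate (MPA) and is passaged in MPA-treated animals. In 3 cultures the cells carried 30 nM of pre-miR-16, a precursor that yields the microRNA miR-16, and in 3 they carried 30 nM of pre-miR-Control, a scrambled precursor. RNA was taken 48 h after transfection in both groups. The series calls these cells ErbB-2 positive. Cultures were prepared from the epithelial fraction, with fibroblasts removed by sedimentation, and they are one transplanted tumour line rather than a panel of tumours. The labels call the 3 samples of a group biological replicates and do not say whether they came from separate tumours or mice. The design sets forced miR-16 expression against a scrambled precursor in the same tumour cells.

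NRF2 is a transcription factor that KEAP1, an adaptor of a ubiquitin ligase, holds at a low level in unstressed cells. Oxidants and electrophiles modify KEAP1, NRF2 escapes degradation, pairs with a small MAF protein and binds antioxidant response elements beside genes that make glutathione, reduce quinones and repair oxidised proteins. Much of this control acts on NRF2 protein, so the Nfe2l2 transcript is not a measure of the protein's activity.

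Mature miR-16-5p and the response elements of these genes show the sequences at issue. A microRNA finds its targets mainly through its seed, bases 2 to 8, given in capitals in the RefSeq mouse sequence. The same mature sequence is encoded on chromosome 14 (chr14:61631936-61631957, minus strand) and chromosome 3 (chr3:69009918-69009939, plus strand) of GRCm38.p6.
miR-16-5p: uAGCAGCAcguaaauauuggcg
miR-15b-5p, with the same seed: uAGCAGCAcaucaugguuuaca
The letters TGCTGCT that pair with this seed occurred in 0 of the 17 probes, which cover 60 bases each and so say nothing of the rest of a transcript. RefSeq promoters, each from 250 bases before to 50 bases after a start site, were at hand for 7 of the 10 genes (Nfe2l2, Keap1, Nqo1, Gclm, Txnrd1, Srxn1 and Gpx1) and were searched on both strands for TGACNNNGC, the core of the antioxidant response element. The core is in capitals in the windows below, all on GRCm38.p6 and in the direction of the gene.
Nfe2l2, chr2:75704884-75704913, minus strand: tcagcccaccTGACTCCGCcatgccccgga
Gclm, chr3:122245413-122245442, plus strand: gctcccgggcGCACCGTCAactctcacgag
Txnrd1, chr10:82859104-82859133, plus strand: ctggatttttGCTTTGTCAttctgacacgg
The match began 240 bases before the start site in Nfe2l2, 134 in Gclm and 92 at 1 of the 3 start sites of Txnrd1. In Gclm and Txnrd1 it lay on the opposite strand, so the capitals show its reverse complement. Srxn1 had a match just after its start site, and it also held the AP-1 motif TGACTCA on the opposite strand, 102 and 45 bases before the start. The core can overlap TGACTCA in part, since both begin with TGAC. The core occurred in 12.4% of 32851 promoters of this length and TGACTCA in 5.2%, and a match is a description of letters, not of binding. The windows of Keap1, Nqo1 and Gpx1 held neither motif. An element more than 250 bases before a start site lies outside the windows and would not have been seen.

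The arrays gave 1 single-colour signal per probe. The 75th percentile of the signal lay between 679 and 843 units on the pre-miR-16 arrays and between 591 and 660 on the pre-miR-Control arrays. In all, 0 spots were saturated, and the share of spots well above background was 57.2% to 64.0%. Levels are log2 signals relative to that percentile of the same array, and levels of different probes are not compared. Means are given ± SD over 3 arrays, and each change ± SE is the log2 ratio of pre-miR-16 to pre-miR-Control in a limma model fitted across all 23827 probes kept, with p-values adjusted by Benjamini-Hochberg over all of them. A probe was called at an adjusted p under 0.05. The number of arrays limits the precision, and an exact permutation test of 3 arrays against 3 cannot give a p below 0.1. Slide 1 held replicate 1 of both groups, slide 2 held pre-miR-16 replicate 2 and pre-miR-Control replicates 2 and 3, and slide 3 held pre-miR-16 replicate 3 alone.

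The groups also differed in markers of other cells. Of 13 macrophage markers 12 rose, with a median change of 4.81, or 2.28 under normexp, another background correction. Only 6 of the 13 were well above background on all 6 arrays, and of these 5 rose (median 2.69). Over all 13 markers the summed scaled signal was 233 to 285 in pre-miR-16 cultures, against 17.0 to 23.2 in pre-miR-Control cultures. Lyz2 (mean level 7.71 in pre-miR-16 cultures) made up most of the pre-miR-16 sums. Csf1r was the one not called, and none of the control arrays had Ptprc or Mrc1 well above background. Of 12 fibroblast markers 11 rose (median change 3.91, all but Dcn), with sums of 746 to 957 in pre-miR-16 cultures, against 440 to 517 in pre-miR-Control cultures. Dcn, which was not called (mean level 8.72 in pre-miR-16 and 8.76 in pre-miR-Control cultures), made up most of the control sums. These sums therefore understate the rise of the other fibroblast markers. Of 12 luminal epithelial markers 9 fell (median -0.63), or 3 with the spike-in scaling (median -0.27), and their sums were 645 to 677 in pre-miR-16 cultures, against 1059 to 1207 in pre-miR-Control cultures. Among all 16702 genes 16.3% rose and 30.0% fell, with a median change of -0.17. With the spike-in scaling 3674 of all genes rose and 1047 fell (median 0.18). Krt8, Krt18 and Epcam were well above background on all 6 arrays. In these bulk samples a change in the share of a cell type cannot be told apart from a change of RNA per cell, and the part of these markers in the results below was not tested.

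Among the 10 genes, the quinone reductase gene Nqo1 and the haem oxygenase gene Hmox1 rose and the glutathione reductase gene Gsr fell, while 7 were not called. All 17 probes were well above background on all 6 arrays. At the brightest probe of each gene, 2 of 10 genes rose, against 16.3% of all 16702 genes, and 1 of 10 fell, against 30.0% of all genes. Counted by probe, 2 of 17 rose and 5 fell, and 44.6% of all probes tested were called in either direction. The median change of the 10 genes was 0.04, beside -0.17 for all genes. The share that rose lay near that of all genes. Scaled on spike-ins, the median of all genes was 0.18, a shift of every value by 0.35, and 77.8% of called genes were rises, against 35.2% with the 75th percentile. Under that scaling 4 of the 10 genes rose and Gsr was no longer called, beside 3674 rises and 1047 falls among all 16702 genes. By probe 5 of 17 rose and 1 fell, and a share of all probes is not given for that scaling.

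**Figure D1:**
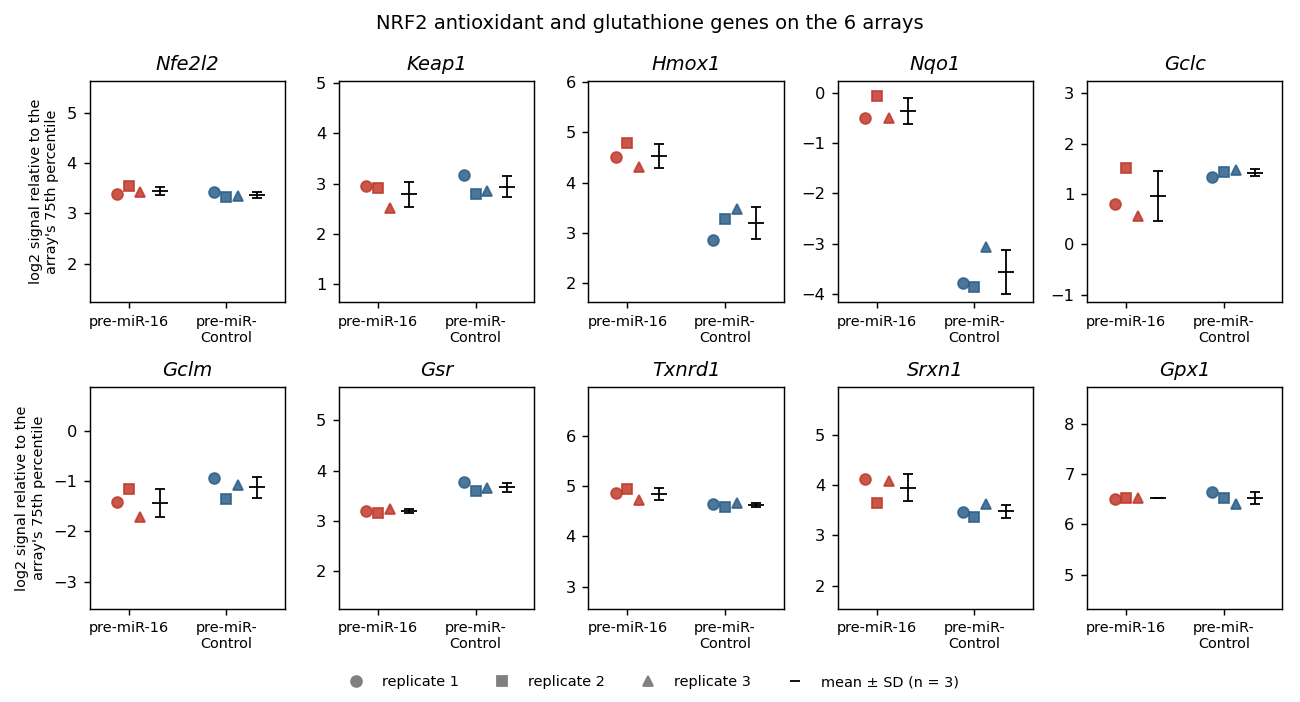
Log2 signal relative to the 75th percentile of the array (vertical axis) of each gene at its brightest probe on the 3 pre-miR-16 arrays (red, left) and the 3 pre-miR-Control arrays (blue, right), with mean ± SD beside them. All panels span the same number of log2 units; the pre-miR-16 points of Nqo1 (-0.51, -0.08 and -0.50) and Hmox1 (4.52, 4.78 and 4.30) lie above all control points, and those of Gsr (3.20, 3.15 and 3.24) lie below them.

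Nqo1, which encodes the enzyme that reduces quinones by NADPH or NADH and is the classical NRF2 target, had levels of -0.51, -0.08 and -0.50 in pre-miR-16 cultures and of -3.78, -3.86 and -3.06 in pre-miR-Control cultures. The lowest pre-miR-16 array lay far above the highest control array. The means were -0.36 ± 0.25 in pre-miR-16 cultures and -3.57 ± 0.44 in pre-miR-Control cultures, a change of 3.20 ± 0.25 or 9.22-fold (limma, adjusted p = 2.17e-04). The change was 3.27 within slide 1 and 3.39 within slide 2. With the normexp background correction it was 2.18, or 4.54-fold, and it was still called. Nqo1 was read by 1 probe, at chr8:105988683-105988742 of mm7, the build of the array annotation. The start of that probe is shown because the widest change of the 10 genes rests on it.
Nqo1, first 30 bases of the probe: taggtcatttatgcaatattcgccattttc

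Hmox1 encodes the inducible enzyme that opens haem to biliverdin, carbon monoxide and iron. Its levels were 4.52, 4.78 and 4.30 in pre-miR-16 cultures and 2.86, 3.27 and 3.47 in pre-miR-Control cultures, with no overlap. The means were 4.53 ± 0.24 in pre-miR-16 cultures and 3.20 ± 0.32 in pre-miR-Control cultures, a change of 1.33 ± 0.20 or 2.52-fold (limma, adjusted p = 0.00314). It was 1.66 within slide 1 and 1.41 within slide 2. In tissue this enzyme is abundant in macrophages. Most of the macrophage and the fibroblast markers given above also rose, and their part in the change of Hmox1 was not tested. Its single probe lies at chr8:73642229-73642288 of mm7.
Hmox1, first 30 bases of the probe: atggttgtaagcatccatgttgactgacca

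Neither the Nfe2l2 transcript at its RefSeq probes nor Keap1 was called. The brightest Nfe2l2 probe, at chr2:75519430-75519489 of mm7, read 3.38, 3.54 and 3.42 in pre-miR-16 cultures and 3.43, 3.32 and 3.35 in pre-miR-Control cultures, and the groups overlapped. The means were 3.45 ± 0.08 in pre-miR-16 cultures and 3.36 ± 0.06 in pre-miR-Control cultures, a change of 0.08 ± 0.09 (adjusted p = 0.491). A neighbouring probe of the same RefSeq transcript, at chr2:75519576-75519635, changed by 0.12 ± 0.09 (adjusted p = 0.294). Keap1 read 2.96, 2.91 and 2.51 in pre-miR-16 cultures and 3.17, 2.80 and 2.85 in pre-miR-Control cultures. These overlapped, and the change was -0.15 ± 0.17 (adjusted p = 0.498), or 0.20 with the spike-in scaling (adjusted p = 0.403).

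The other probes that the files name Nfe2l2 behaved differently. They are designed on cDNA clones, and they lie at higher coordinates of chromosome 2 than the RefSeq probes, 16.2 kb away for AK029360 (chr2:75535606-75535665) and 25.0 kb away for AK031731 (chr2:75544410-75544469), on mm7. The AK029360 probe read -4.57, -4.04 and -4.16 in pre-miR-16 cultures and -2.69, -2.19 and -2.30 in pre-miR-Control cultures. It fell by 1.87 on the log2 scale, 3.64-fold, with an SE of 0.19 (adjusted p = 7.94e-04), or 2.05-fold with the normexp background correction. The AK031731 probe read -2.03, -1.54 and -2.15 in pre-miR-16 cultures and -1.21, -1.25 and -1.15 in pre-miR-Control cultures. Its change of -0.70 ± 0.17 (adjusted p = 0.0178) was -0.82 within slide 1 and -0.34 within slide 2. It was no longer called in 7 of 21 other settings, among them the spike-in scaling (-0.35, adjusted p = 0.208) and the fits without pre-miR-16 replicate 1 or without pre-miR-Control replicate 2 or 3. The files do not say whether these clones lie in an exon or an intron of Nfe2l2. The probes of the RefSeq transcript and of the clones are shown side by side.
Nfe2l2, NM_010902, brightest probe, first 30 bases: ctcaagttaatttcttaggcaccatttggg
Nfe2l2, NM_010902, neighbouring probe, first 30 bases: gtactgctaaaacttcctactgtgatgtga
Nfe2l2, AK029360, first 30 bases: tagtaatcctttttataggcccaaattgca
Nfe2l2, AK031731, first 30 bases: ggtagagtttggtaatgattaccctgtatt
Averaged over its 4 probes, Nfe2l2 had a change of -0.59 (adjusted p = 0.00735), so the gene's direction depends on which probes are read.

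**Figure D2:**
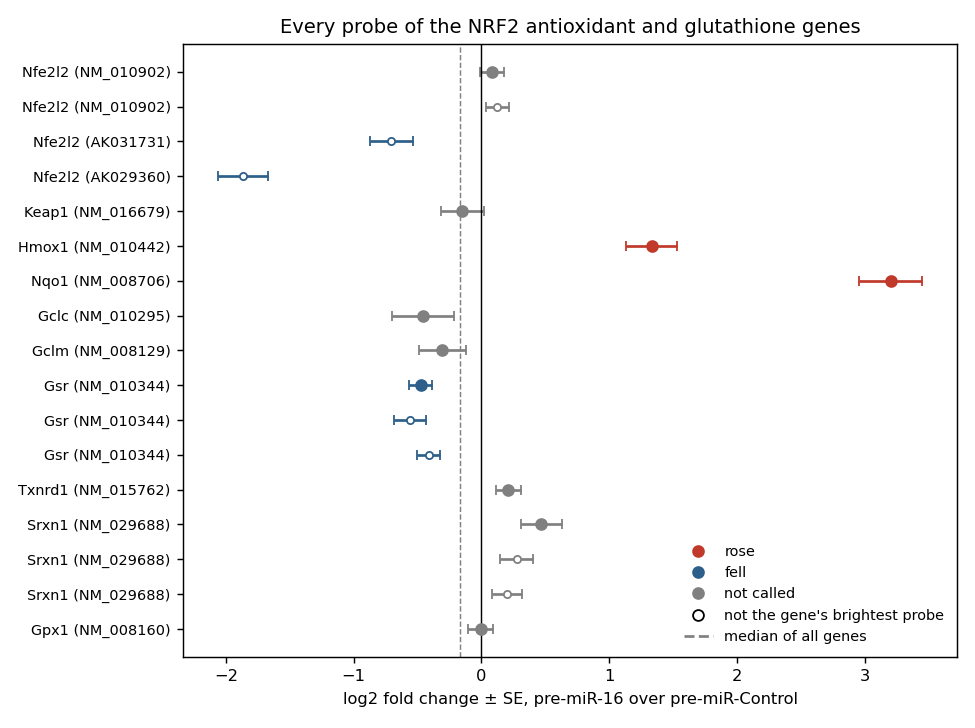
Log2 fold change ± SE of pre-miR-16 over pre-miR-Control (horizontal axis) for each of the 17 probes, named by gene and accession, with open symbols for probes that are not the brightest of their gene and a dashed line at the median of all genes (-0.17). The cDNA clone probes of Nfe2l2 lie at -0.70 and -1.87 while its RefSeq probes lie at 0.08 and 0.12, and the 3 Gsr probes lie together between -0.56 and -0.41.

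Of the glutathione genes, Gsr fell and the others were not called. Gsr encodes the reductase that returns oxidised glutathione to its reduced form with NADPH. Its brightest probe, at chr8:32465796-32465855 of mm7, read 3.20, 3.15 and 3.24 in pre-miR-16 cultures and 3.77, 3.60 and 3.65 in pre-miR-Control cultures, with no overlap. The change was -0.48 ± 0.09, 1.39-fold lower (limma, adjusted p = 0.00815), with -0.57 within slide 1 and -0.47 within slide 2. The other probes changed by -0.56 ± 0.12 (adjusted p = 0.0125) and -0.41 ± 0.09 (adjusted p = 0.0134), and the last of these, which overlaps the brightest probe in position, was not called without pre-miR-Control replicate 2 or 3. Scaled on the spike-ins, the change at the brightest probe was -0.12 (adjusted p = 0.644), where the median of all genes was 0.18.
Gsr, brightest probe, first 30 bases: ggaacaaagtgcattaaagttagacttgag

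Gclc and Gclm encode the catalytic and modifier subunits of glutamate-cysteine ligase, the first and rate-limiting enzyme of glutathione synthesis. Gclc read 0.80, 1.52 and 0.57 in pre-miR-16 cultures and 1.35, 1.43 and 1.49 in pre-miR-Control cultures. Replicate 2 of the pre-miR-16 group lay above every control and the other two below every control, and the change was -0.46 ± 0.24 (adjusted p = 0.171). Without pre-miR-16 replicate 2 it was -0.74 and was called (adjusted p = 0.00417), and within slides 1 and 2 it was -0.55 and 0.06. Gclm read -1.42, -1.16 and -1.73 in pre-miR-16 cultures and -0.95, -1.37 and -1.08 in pre-miR-Control cultures. The groups overlapped and the change was -0.31 ± 0.18 (adjusted p = 0.214), or 0.05 with the spike-in scaling (adjusted p = 0.883). Gpx1, the cytosolic selenium-containing glutathione peroxidase, read 6.51, 6.52 and 6.52 in pre-miR-16 cultures and 6.64, 6.53 and 6.41 in pre-miR-Control cultures. Its change was -0.01 ± 0.10 (adjusted p = 0.966), and its sign turned under 5 of 23 other settings without a call.

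The thioredoxin side of the system lay higher on every pre-miR-16 array at the brightest probes but was not called. Txnrd1 encodes cytosolic thioredoxin reductase, which keeps thioredoxin reduced. It read 4.86, 4.94 and 4.71 in pre-miR-16 cultures and 4.64, 4.58 and 4.66 in pre-miR-Control cultures. The groups did not overlap, as for 60.3% of all genes, and the change was 0.21 ± 0.10 (adjusted p = 0.130). It was called with arrays scaled on the spike-ins (0.56, adjusted p = 0.0317) and with array weights (0.21, adjusted p = 0.0497). Srxn1 encodes sulfiredoxin, which repairs overoxidised peroxiredoxins. Its brightest probe read 4.12, 3.63 and 4.09 in pre-miR-16 cultures and 3.45, 3.36 and 3.62 in pre-miR-Control cultures, so that the lowest treated array and the highest control array nearly touched. The change of 0.47 ± 0.16 just missed the threshold (adjusted p = 0.0543), with 0.67 within slide 1 and 0.14 within slide 2. It was called under 9 of 23 other settings, among them without pre-miR-16 replicate 2 (0.63, adjusted p = 0.00660). The other Srxn1 probes, which overlap each other in position, changed by 0.28 ± 0.13 and 0.20 ± 0.12 (adjusted p = 0.125 and 0.215).

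**Figure D3:**
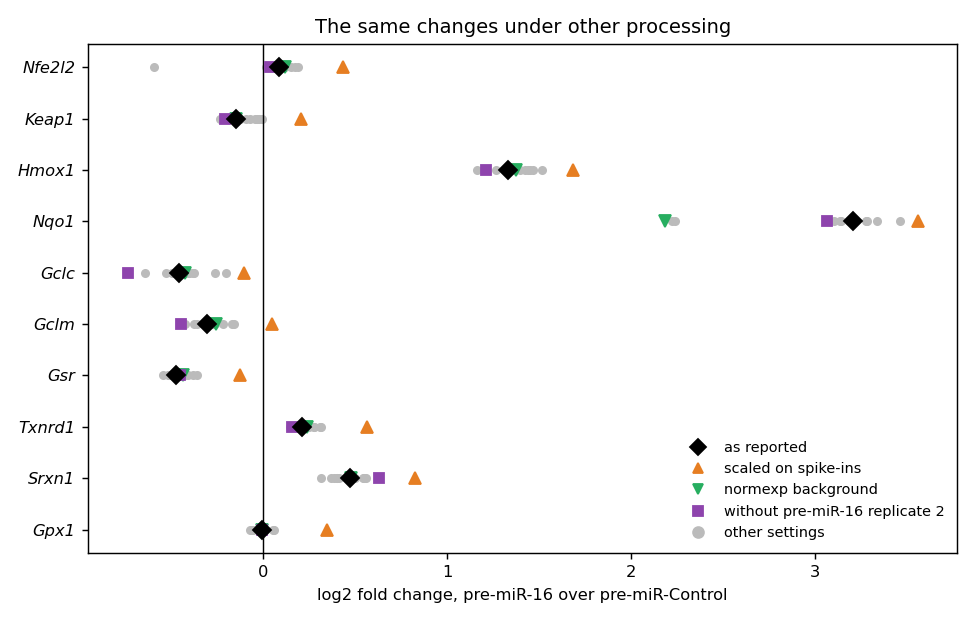
Log2 fold change of pre-miR-16 over pre-miR-Control (horizontal axis) of each gene as reported (black diamonds) and under 23 other settings with a test, with the spike-in scaling, the normexp background correction (75th percentile) and the fit without pre-miR-16 replicate 2 marked. Nqo1 spans 2.18 to 3.56 and Hmox1 1.16 to 1.68, while the spike-in scaling moves all genes to the right.

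The genes whose 6 mean-centred log2 levels lay nearest to those of Nqo1, by root mean square difference over the 6 arrays, included Dgkk (0.10), and Vegfc, Wipf1 and Grb10 (0.14 each). The changes of Vegfc, Grb10 and Wipf1 were 3.01, 3.16 and 3.26. None of the control arrays had Dgkk well above background, so its pattern there is not that of a measured level, and its rise is known only as at least 5.20-fold.

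Beyond the 10 genes, 126 further genes of the same biology were listed in 7 groups, of which 124 were on the array and 114 passed the filter. Of these 38 rose, 24 fell and 52 were not called, with a median change of 0.17. Among all genes 16.3% rose and 30.0% fell, with a median of -0.17. With the spike-in scaling 49 of the 114 rose and 11 fell, beside 3674 rises and 1047 falls among all 16702 genes.

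Of 11 measured partners and regulators of NRF2, 2 rose, 2 fell and 7 were not called (median 0.18). Of all 16702 genes 16.3% rose, 30.0% fell and 8969 were not called. With the spike-in scaling 4 of the 11 rose and 1 fell (median 0.53), beside 3674 rises and 1047 falls among all 16702 genes. Only 1 of the 11 rose without pre-miR-16 replicate 1 or 3 or any 1 control array. Nfe2l3, a relative of NRF2, changed by -1.23 ± 0.17 (adjusted p = 0.00240) at its brightest probe and by -0.32 ± 0.16 at another, which was not called. Bach2, a repressor that shares the small MAF partners, was 1 of the 2 called as rises. No control array had it well above background, so its limma test (adjusted p = 0.00197) set signal against background. Its rise is known only as at least 1.66-fold, and its change was 0.18 and not called with the normexp correction. Nfe2l1, another relative of NRF2 that was named after its value was seen, changed by 0.37 ± 0.11 (adjusted p = 0.0396), and Rbx1, the RING subunit of the KEAP1 ligase, by -0.40 ± 0.11 (adjusted p = 0.0298). Rbx1 lost its call with the spike-in scaling (-0.04), and both lost theirs with slide as a block and without pre-miR-16 replicate 3 or any 1 of the control arrays, Nfe2l1 also without pre-miR-16 replicate 1.

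Among the genes for glutathione supply and peroxidases more rose than fell. Of these 17, 7 rose, 1 fell and 9 were not called (median 0.29), beside 16.3% rises and 30.0% falls among all genes. Without pre-miR-16 replicate 1 only 4 rose. Gpx7 and Gpx8, peroxidases of the endoplasmic reticulum, rose by 4.09 ± 0.19 (17.0-fold, adjusted p = 2.73e-05) and 3.58 ± 0.13 (11.9-fold, adjusted p = 1.34e-05). Gpx7 averaged 1.53 ± 0.21 in pre-miR-16 cultures and -2.56 ± 0.31 in pre-miR-Control cultures, and its fold was 10.9 with the normexp correction. Ggct, whose enzyme releases 5-oxoproline from gamma-glutamyl amino acids, changed by -1.47 ± 0.15 (adjusted p = 6.65e-04). The cystine carrier subunit genes Slc7a11 (1.58 ± 0.19) and Slc3a2 (0.61 ± 0.10), named after their values were seen, were among the 7 that rose. Of the fibroblast markers given above 11 of 12 rose on the same arrays, and their part in these rises was not tested.

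The glutathione transferases split. Of 21 measured, 6 rose, 10 fell and 5 were not called (median -0.36), beside 16.3% rises and 30.0% falls among all genes. With the spike-in scaling 7 rose and 5 fell (median -0.01), beside 3674 rises and 1047 falls among all 16702 genes. Without pre-miR-16 replicate 1, or without pre-miR-Control replicate 2 or 3, 6 of the 21 rose and 6 fell. Gstm1 rose by 3.42 ± 0.17 (10.7-fold, adjusted p = 3.14e-05), Gsta3 by 3.32 ± 0.17 (9.97-fold, adjusted p = 3.73e-05) and Gstm2 by 2.79 ± 0.17 (6.91-fold, adjusted p = 7.57e-05). Under normexp the fold of Gsta3 was 6.25. Those not called were Gstk1, Gsta4, Gstm7, Gstm4 and Gsta1. Gstm6, named after its value was seen, was also among the 6 that rose. No control array had it well above background, so its rise is known only as at least 2.8-fold. Over the 20 transferases well above background on all 6 arrays, 6 rose and 10 fell, beside 2084 rises and 4738 falls among 15045 genes. The Gstm and Gsta genes are close paralogs, and a 60-base probe can bind the transcript of a related gene, so values for single members are uncertain.

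Thioredoxins, peroxiredoxins, dismutases, sestrins and catalase gave 8 rises, 1 fall and 12 genes not called of 21 (median 0.24). Rises made up 16.3% and falls 30.0% of all genes. Sesn2, a stress-induced inhibitor of mTORC1 signalling, rose by 2.21 ± 0.23 (adjusted p = 8.28e-04) at its brightest probe, its relative Sesn3 changed by -1.64 ± 0.17 (adjusted p = 7.92e-04), and Txnip, which binds and inhibits thioredoxin, rose by 1.77 ± 0.20 (adjusted p = 0.00113). Thioredoxin itself, Txn1 (-0.01 ± 0.16), and the peroxiredoxin Prdx1 (-0.11 ± 0.12), both named after their values were seen, were not called. The probes of Sesn2 disagreed, since its other kept probe changed by -0.63 ± 0.23 (adjusted p = 0.0636) and the mean of both by 0.79.

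Genes of NADPH supply and detoxification moved both ways, with 7 rises, 6 falls and 9 not called of 22, beside 16.3% rises and 30.0% falls among all genes. Their median change was -0.06, and 0.29 with the spike-in scaling, under which 7 rose and 2 fell, beside 3674 rises and 1047 falls among all 16702 genes. Without pre-miR-16 replicate 1, or without pre-miR-Control replicate 2 or 3, the rises numbered 4. Ugt1a6b, a glucuronosyltransferase, rose by 3.63 ± 0.15 (12.4-fold, adjusted p = 1.72e-05), and Ephx1, the microsomal epoxide hydrolase, by 2.78 ± 0.17 (6.88-fold, or 4.47-fold under normexp, adjusted p = 8.30e-05). Aldh1a1, a retinaldehyde dehydrogenase, changed by -1.25 ± 0.15 (adjusted p = 0.00150). Osgin1 (-0.64 ± 0.14) and the malic enzyme gene Me1 (-0.57 ± 0.09), named after their values were seen, were among the 6 that fell, and neither was called with the spike-in scaling (-0.29 and -0.22). Cbr3 (0.65 ± 0.09), also named after its value was seen, was among the 7 that rose and was called in all 23 other settings.

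In the list for haem breakdown and iron storage 2 rose, 2 fell and 7 were not called of 11 (median 0.09). Of all genes 16.3% rose and 30.0% fell. With the spike-in scaling 4 of the 11 rose and 1 fell (median 0.44), beside 3674 rises and 1047 falls among all 16702 genes. Only 1 of the 11 rose without pre-miR-16 replicate 1 or without pre-miR-Control replicate 2 or 3. The haptoglobin gene Hp rose by 2.27 ± 0.28 (adjusted p = 0.00166), and Alas1, the first enzyme of haem synthesis, changed by 0.39 ± 0.09 (adjusted p = 0.0173), was named after its value was seen and kept its call in 15 of 23 other settings, not without pre-miR-16 replicate 1 or pre-miR-Control replicate 2 or 3. Fech, the last enzyme of haem synthesis, changed by -0.81 ± 0.10 (adjusted p = 0.00166) and was not called with the spike-in scaling (-0.45) or at its other probe (-0.26 ± 0.11). Slc40a1, the iron exporter ferroportin, changed by -2.48 ± 0.46 (adjusted p = 0.00688). The ferritin genes Fth1 (0.06 ± 0.14) and Ftl1 (0.31 ± 0.12), which store the iron that haem breakdown frees and were named after their values were seen, were not called.

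The NADPH oxidases, which make superoxide, had the highest median of the 7 lists, 1.38, or 0.57 under normexp and 0.22 over the 9 genes well above background on all 6 arrays, where it was below that of the glutathione supply list (0.29). Of 11 measured 6 rose, 2 fell and 3 were not called, beside 16.3% rises and 30.0% falls among all genes. Over the 9 genes well above background on all 6 arrays, 4 rose and 2 fell, beside 2084 rises and 4738 falls among 15045 genes. Of the 11, those with the smallest p included phagocyte subunits. Ncf4 rose by 4.43 ± 0.21 (21.5-fold, adjusted p = 2.82e-05) and Rac2 by 4.36 ± 0.29 (20.5-fold, adjusted p = 1.19e-04), with folds of 10.6 and 6.39 under normexp. Ncf4 averaged 0.90 ± 0.32 in pre-miR-16 cultures and -3.53 ± 0.27 in pre-miR-Control cultures. Noxa1 (-0.86 ± 0.17) and Nox4 (-0.58 ± 0.18) fell and lost their calls with the spike-in scaling, Nox4 also without pre-miR-16 replicate 1 or 3 or pre-miR-Control replicate 2 or 3, and Cyba, Noxo1 and Duox2 were not called. Of the macrophage markers 12 of 13 rose on the same arrays, and their part in these rises was not tested.

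**Figure D4:**
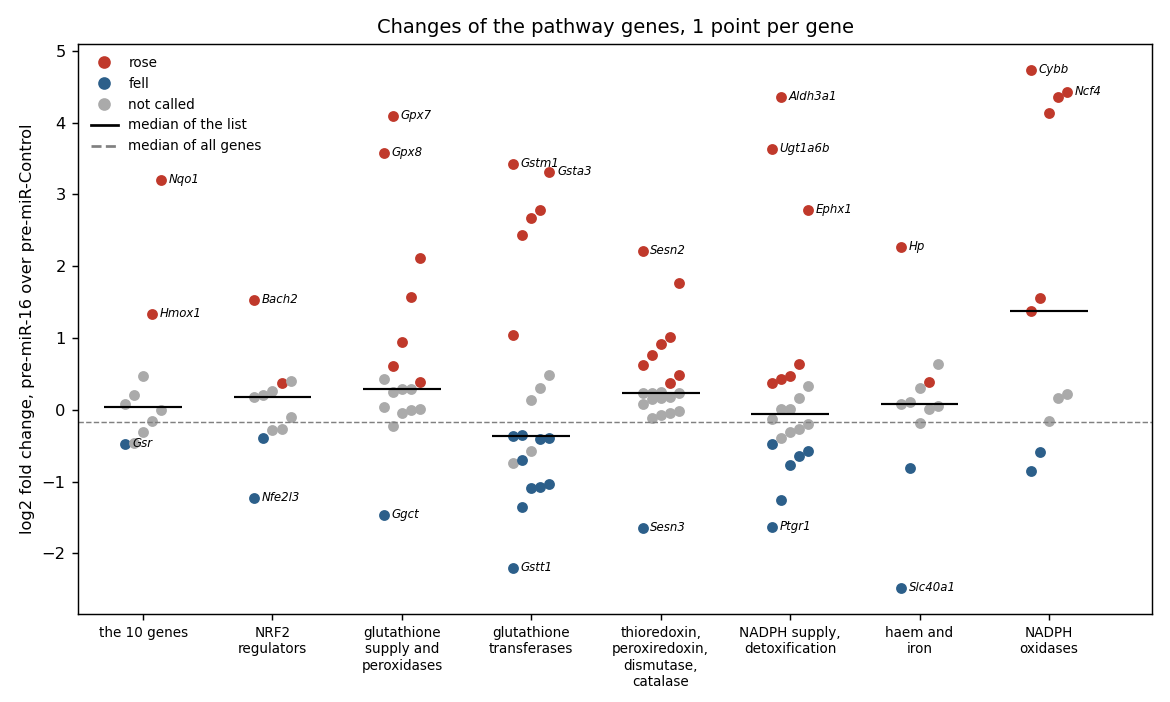
Log2 fold change of pre-miR-16 over pre-miR-Control (vertical axis), 1 point per gene, for the 10 genes and the 7 lists, coloured by whether the gene rose, fell or was not called, with the median of each list (black bar) and of all genes (dashed line). The list medians run from -0.36 for the glutathione transferases to 1.38 for the NADPH oxidases, and the transferases hold points both above 3 and below -2.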

How the data were processed

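Total RNA of 6 cultures, 3 per group and grouped by the sample titles, was hybridised to single-colour Agilent arrays. Each deposited scanner file gives the intensity of every spot after background subtraction and detrending by Agilent Feature Extraction (version 9.5.3.1), per the file headers, with coordinates on mm7 (NCBI35). The deposited series matrix holds log2 values whose normalization no label states. It served as an alternative, and in it the first and second pre-miR-16 columns appear exchanged (each correlates at 0.999 with the other's scanner file and at 0.985 with its own). Column medians were 6.79 to 6.81. No matrix column lacked a sample.

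Control spots and 74 to 113 outlier spots per array were left out, spots of a probe were averaged on the log2 scale, and the array's 75th percentile was subtracted. Probes with at least 0.5 of their spots well above background on all 3 arrays of a group were kept (23827). Groups were compared with limma 3.58.1 (lmFit, eBayes) in R 4.3.3 with Benjamini-Hochberg adjustment, and a gene was read at its brightest kept probe (16702 genes). Files were read with version 1.17.8 of the data.table package. Of the probes, 22951 were named by accession, 6659 by symbol and 11564 as in the file. Where no control array was well above background, the fold is a lower bound, taken against the lowest signal well above background on each array.

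The 10 genes and all lists were chosen with earlier results of these data known. The named genes are the 10 with all their probes, from each further list up to 3 called genes with the smallest p and the uncalled genes that a count of 5 or fewer rests on, and the 5 nearest to the member with the largest change. A few genes chosen this way are not reported here. The alternatives were 3 other scalings, normexp (offset 50) with either normalization, the matrix, 2 other filters, outlier spots kept, 1 probe or the mean per gene, 2 other variance models, replicate number or slide as a block, slide as a random block, adjusted p under 0.01, and each array left out. The code was tested on simulated data. The labels state no pairing, and none was used in the main fit. Deviations of equally numbered arrays from their group means correlated at -0.0866, -0.0423 and -0.0023. With 3 arrays per group these values cannot show whether the cultures were paired.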

Additional observations from a re-analysis of the deposited data

How the results depend on the processing

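Nqo1 (2.18 to 3.56) and Hmox1 (1.16 to 1.68) kept their direction and call under all 23 alternatives with a test, and Gsr (-0.54 to -0.12) under all but the spike-in scaling. The number of the 17 probes called, 7 as reported, was 12 with array weights (6 rose, 6 fell), 4 with slide as a block, 4 at an adjusted p under 0.01, and 5 to 11 with 1 array left out, the highest without pre-miR-16 replicate 2. Of the 10 genes 3 were called as reported, 6 with array weights, and 3 to 5 with 1 array left out, again highest without pre-miR-16 replicate 2, when 3 rose and 2 fell. Of the 114 further genes 62 were called as reported, 39 at an adjusted p under 0.01 (24 rose, 15 fell), and 45 to 71 with 1 array left out. The share of all genes called moved in the same way. It was 46.3% as reported, 61.8% with array weights, 32.2% with slide as a block and 26.3% at an adjusted p under 0.01. With 1 array left out it was 31.2% to 52.5%, again highest without pre-miR-16 replicate 2. Signs turned without a call for Gpx1 with quantile normalization (0.0603), the spike-in scaling (0.35), normexp then quantile (0.0108) and array weights (0.0072), where leaving out 1 array gave -0.0635 to 0.0517, and for Keap1 (0.20) and Gclm (0.0455) with the spike-in scaling. Nfe2l2 turned with the mean of its probes (-0.59), which brings in the clone probes. With the replicate block 6 probes and 3 genes were called, with Nqo1 at 3.20 (adjusted p = 0.00233), Hmox1 at 1.33 (adjusted p = 0.0121) and Gsr at -0.48 (adjusted p = 0.0366). The cause of the other changes was not tested. With 3 arrays per group no array was tested as an outlier.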
